A study of Solanum lycopersicum with 12 samples.

Results

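Leaflets of tomato (Solanum lycopersicum) that carried no larvae were compared between 2 harvests, at 24 h and at 5 h after a mock deposition. The comparison addressed which genes differ between the 2 harvests when no insect feeds on the plant. It rested on 6 of the 12 RNA-seq libraries of the series, 3 control libraries of the 24 h harvest and 3 of the 5 h harvest, and on no infested library. A gene was tested when it had more than 1 CPM (counts scaled to library size) in at least 3 of these 6 libraries, which left 17165 of 34075 genes.

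The study around these libraries followed the response of tomato to larvae of the leafminer Tuta absoluta. The 24 h controls and the 5 h controls were both of the cultivar Better Bush and both received the mock deposition, performed with a paintbrush and without larvae. All grew in a Nutrient Film Technique system, in which roots sit in a thin stream of nutrient solution, under a 16 h photoperiod at 23 °C by day, 18 °C by night and 60% humidity. Terminal leaflets of 1 true leaf were frozen at each harvest, the third by the sample labels and the fourth by the methods text. The labels name 6 control plants and do not say how they were divided among the 6 libraries, so the p-values measure the spread between these libraries, which may be partly technical.

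The harvests lay 19 h apart. The position of each harvest in the light and dark cycle, the hours since the mock deposition and the age of the plants therefore differ together between the groups. The file headers also name one mapping input (numbered 13) for the 24 h libraries and another (numbered 851) for the 5 h libraries. The effects of these differences cannot be told apart here, and no source used here gives the clock time of a harvest.

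In a leaf, light harvesting proteins bind chlorophyll and carotenoids and pass absorbed energy to the photosystems. Their genes belong to the most abundant transcripts of green tissue, and in many plants their transcripts cycle over the day under the control of light and the circadian clock. Carbon fixed in the light is stored as starch or made into sucrose for export, a step in which sucrose-phosphate synthase acts, and starch is broken down in the dark. Phenylalanine ammonia-lyase (PAL) opens the phenylpropanoid pathway, which leads to lignin precursors, hydroxycinnamic acid conjugates and flavonoids. Clock genes were not analysed by name: of the identifiers in the count tables, 0 could be matched to the reference gene table.

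The control libraries held between 22945571 and 27824673 counts, and genes tested took 99.77% to 99.83% of them. The first principal component carried 65.75% of the variance and separated the 24 h libraries (scores -59.62 to -51.2) from the 5 h libraries (52.34 to 57.49). The second carried 18.41% and set replicate 3 of the 24 h controls (-53.43) apart from replicate 2 (39.18). Correlations of log2 CPM were 0.946 to 0.980 within a group and 0.896 to 0.917 between groups. The largest distance within a group was that between replicates 2 and 3 at 24 h.

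At 24 h, 2626 genes were higher and 2504 were lower than at 5 h (edgeR's quasi-likelihood test, Benjamini-Hochberg adjusted p below 0.05). These were 15.3% and 14.6% of all genes tested, or 29.9% in both directions, and a count of called list members is read against these shares. The log2 fold change (log2FC, 24 h minus 5 h) had a median of 0.009 over all genes, 0.92 over those called higher and -0.95 over those called lower. Changes above 4 in absolute log2FC were called for 37 genes in the higher and 40 in the lower direction. Scaling by library totals alone called 3330 genes higher and 1945 lower, so that 63.1% of calls were in the higher direction in place of 51.2%, and it moved the median of all genes to 0.121. Without 5 h replicate 2 the lower calls were 1653, and without 5 h replicate 3 they were 1626.

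**Figure D1:**
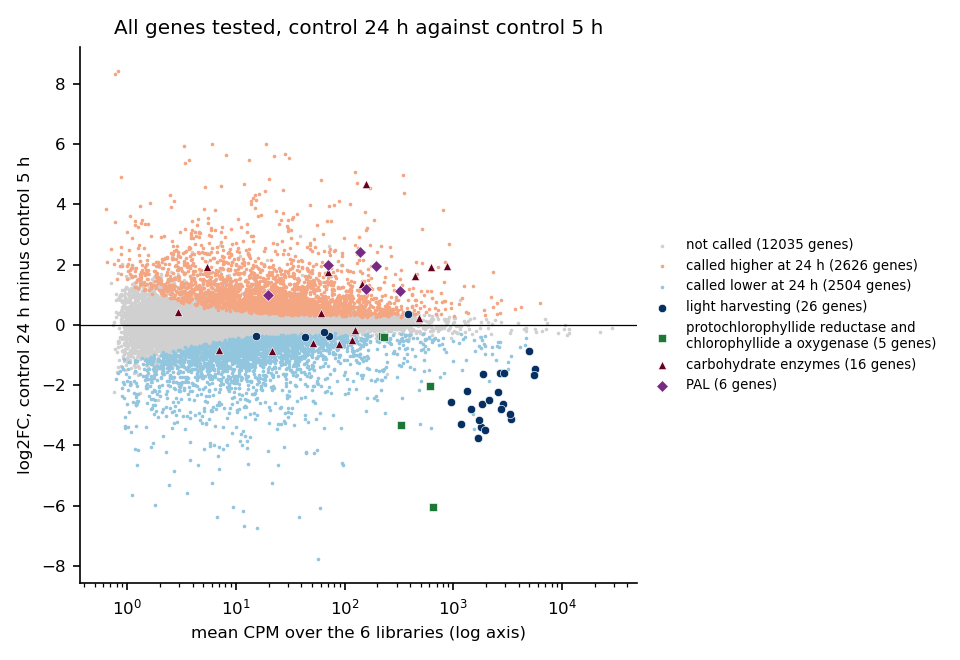
Each point is 1 of the 17165 genes tested, with its mean CPM over the 6 libraries (horizontal log axis) and its log2FC, 24 h minus 5 h controls (vertical axis). Of the light harvesting genes (dark blue circles), 20 sit above 1000 mean CPM and all 20 were called lower, whereas the 6 PAL genes (purple diamonds) all lie above 0.

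Genes with the most counts did not divide evenly between the directions. CPM is not corrected for gene length, so an order of genes by CPM is an order of counts and not of transcript number. Among the 124 genes with a mean of 1000 CPM or more, 19 were called higher (15.3%) and 52 lower (41.9%). Light harvesting genes made up 20 of these 124, and each of the 20 was lower at 24 h. Among the 1315 genes between 100 and 1000 CPM the shares were the other way, 26.0% higher and 15.4% lower.

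Light harvesting genes were lower at 24 h with few exceptions. The list holds 26 genes and all 26 were tested. It was chosen by the study as an enriched annotation in comparisons of infested with control plants that include these control libraries, so it is not independent evidence of a direction. Of the 26, 22 were lower at 24 h, 0 were higher and 4 did not pass the test. Their median log2FC was -2.35, beside 0.009 over all genes. The 24 h and 5 h libraries did not overlap for 23 of them, all with 24 h below 5 h, whereas 23.1% of all genes showed no overlap in this direction and 22.5% in the other (45.6% in both).

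Summed over the list, light harvesting transcripts came to 20749, 17326 and 24986 CPM in the 24 h libraries, against 82844, 86195 and 98079 CPM in the 5 h libraries. The sum was 4.24-fold lower at 24 h. In RNA of whole leaflets, fewer cells of a type and less RNA per cell cannot be told apart. As a share of all counts it was 1.84% to 2.52% in the 24 h libraries and 8.15% to 9.12% in the 5 h libraries. The spread within each group was small beside this gap and had a pattern of its own. At 24 h, replicate 3 was the highest library for 25 of the 26 genes and replicate 2 the lowest for 23. At 5 h, replicate 3 was the highest for 24.

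The light harvesting genes fell by very different amounts. Of the 22 called lower, 6 had a log2FC below -3, 9 lay between -3 and -2, 5 between -2 and -1, and 2 above -1. The largest fall was in Solyc02g070980, with 214, 140.5 and 342 CPM in the 24 h libraries, against 3149, 2809 and 3402 CPM in the 5 h libraries. Its log2FC was -3.75 ± 0.30 (SE; edgeR adjusted p = 5.07e-05), which is 13.4-fold lower. Every 24 h value lay far below every 5 h value, although relative to their mean the 24 h libraries differed among themselves by more than the 5 h libraries did. The smallest adjusted p was that of Solyc03g005780, with 344, 328 and 372 CPM in the 24 h libraries, against 2668, 3144 and 3534 CPM in the 5 h libraries. Here the 3 libraries of 24 h lay close together, and the log2FC was -3.16 ± 0.13 (edgeR adjusted p = 2.54e-06).

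Several light harvesting genes carry neighbouring identifiers, and reads of similar copies could be shared among them, since no source used here says how reads with several matches were treated. Sums over neighbours do not change with how such reads were divided among those neighbours, but could still change if reads were left out or given to copies elsewhere, which was not tested. The 7 listed genes from Solyc02g070940 to Solyc02g071010 together had 2987, 2377 and 4281 CPM in the 24 h libraries, against 24450.2, 23921 and 28352 CPM in the 5 h libraries, 7.96-fold lower. The 3 genes from Solyc03g005760 to Solyc03g005780 were lower by a similar factor, 7.19-fold, as sums. Both sums fell further than that of the whole list.

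Other members with many counts fell less. Solyc09g014520 had the highest mean CPM of the list at 24 h, with 3511, 2910.0 and 4041 CPM in the 24 h libraries, against 6090.5, 6161 and 6900.3 CPM in the 5 h libraries. Its log2FC of -0.87 ± 0.13 (edgeR adjusted p = 0.00154) corresponds to a level 1.83-fold lower at 24 h. Solyc06g063370 and Solyc10g006230, with the highest mean CPM at 5 h, had log2FC of -1.45 and -1.66. At 24 h 5 members still had a mean above 1000 CPM, while at 5 h 21 members did.

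The 5 remaining members stood apart from the other 21. For 4 of these 5 the mean at 5 h was under 100 CPM, beside a median of 3201 CPM over the list, and their log2FC lay between -0.40 and -0.25. Among the 4, Solyc04g082920 (log2FC -0.35, edgeR adjusted p = 0.0453) passed the test. It lost its call without each of 5 libraries (adjusted p 0.082 to 0.164) and with library totals as scale (0.140). The call was also lost with no filter (0.0561), the likelihood ratio test (0.0529) and the replicate block (0.070). The fifth, Solyc07g022900, was the only member with a positive log2FC. It had 452, 371 and 487 CPM in the 24 h libraries, against 317, 309 and 383 CPM in the 5 h libraries, so that the groups overlapped, and the difference of 0.38 ± 0.13 did not pass (edgeR adjusted p = 0.0613). Leaving out 24 h replicate 2 made it a call in the higher direction (0.0223), and so did library totals as scale (0.0121).

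**Figure D2:**
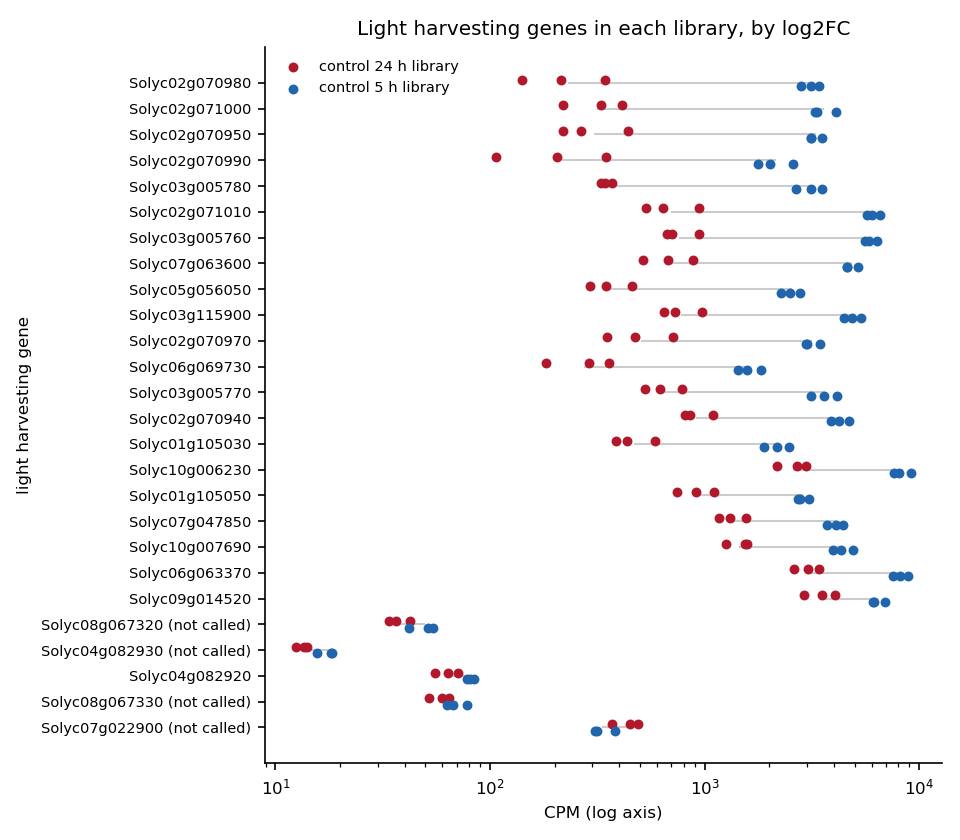
The CPM of each light harvesting gene (rows, ordered by log2FC) is given for every library on a log axis, with 24 h controls in red and 5 h controls in blue, and a grey line joining the group means. In 21 rows the 24 h points lie well to the left of the 5 h points, and in the bottom 5 rows they lie close together.

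The enzymes that make chlorophyll were lower in part. Protochlorophyllide reductase, which in angiosperms needs light to act, was annotated on 3 genes, and all 3 fell. Solyc12g013710 had 25.6, 11.98 and 21.2 CPM in the 24 h libraries, against 1388, 1071 and 1409 CPM in the 5 h libraries. This was 65.7-fold lower at 24 h (log2FC -6.04 ± 0.30, edgeR adjusted p = 6.33e-06), and no gene with a higher mean level at 5 h had a larger fall. The second, Solyc10g006900, had 66.4, 44.0 and 70.0 CPM in the 24 h libraries, against 645, 549.6 and 600.2 CPM in the 5 h libraries, a log2FC of -3.32 ± 0.18. The third, Solyc07g054210, had 234, 211 and 274 CPM in the 24 h libraries, against 931, 959 and 1041 CPM in the 5 h libraries, a log2FC of -2.03 ± 0.12. The 3 genes thus fell to different degrees, with no overlap of groups in any. Over all genes 14.6% were called lower and 23.1% had no overlap in this direction. The 3 were found by keyword with values known, in an annotation that covers only 939 of the 17165 genes tested. That annotation is given mainly for genes that differed between infested and control plants.

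Chlorophyllide a oxygenase, which makes chlorophyll b, was annotated on 2 genes with small differences, log2FC -0.39 for Solyc11g012850 and -0.38 for Solyc06g060310 (edgeR adjusted p = 0.0388 and 0.0421). Neither passed the test without 24 h replicate 2, 5 h replicate 2 or 5 h replicate 3, nor with library totals as scale, where 3 in place of 5 of the reductase and oxygenase genes were called lower. The 3 reductase genes kept their calls.

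Of 7 genes in the chlorophyll biosynthesis list, 4 were lower at 24 h, 0 were higher and 3 did not pass, with a median log2FC of -0.32. The magnesium chelatase gene Solyc04g015750, whose product puts magnesium into the ring, had 2175, 1943 and 2545 CPM in the 24 h libraries, against 4539, 4512 and 4698 CPM in the 5 h libraries. Its log2FC was -1.05 ± 0.12 (edgeR adjusted p = 0.000287) and its groups did not overlap. The fall was small beside those of the reductase genes. In the wider tetrapyrrole list, which covers heme and chlorophyll and contains these 7, 7 of 19 genes were lower, 1 was higher and 11 did not pass, with a median of -0.21. The 1 higher call had a log2FC of 0.99. The lowest log2FC in either list was -1.05, so neither list holds the 3 reductase genes. Over all genes 14.6% were called lower and 15.3% higher. The study chose both lists on comparisons that include these control libraries.

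One gene of the siroheme branch of tetrapyrrole synthesis, which is not a member of the tetrapyrrole list, was higher at 24 h. Solyc01g086650, annotated as a methyltransferase of siroheme synthesis, had 186, 207 and 123 CPM in the 24 h libraries, against 22.7, 22.1 and 25.8 CPM in the 5 h libraries. Siroheme is the cofactor of nitrite and sulfite reductases. The gene was 7.33-fold higher at 24 h (log2FC 2.87 ± 0.20, edgeR adjusted p = 2.31e-05), with replicate 3 the lowest of the 24 h libraries and still far above the 5 h libraries.

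The enzymes of the xanthophyll cycle moved in opposite directions. Zeaxanthin epoxidase turns zeaxanthin into violaxanthin, and violaxanthin de-epoxidase reverses this in strong light. The epoxidase gene Solyc02g090890 had 97.8, 98.9 and 127 CPM in the 24 h libraries, against 948, 1203 and 1288 CPM in the 5 h libraries, a level 10.6-fold lower (log2FC -3.41 ± 0.16, edgeR adjusted p = 5.59e-06). The de-epoxidase gene Solyc04g050930 had 175, 167 and 202 CPM in the 24 h libraries, against 81.9, 81.2 and 77.8 CPM in the 5 h libraries, a level 2.25-fold higher (log2FC 1.17 ± 0.10, edgeR adjusted p = 7.79e-05). Neither gene had overlapping groups.

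Of the 5 genes in the carotenoid biosynthesis list, 3 were higher, 1 was lower and 1 did not pass, with a median log2FC of 0.27. The clearest was Solyc04g040190, with 207, 194 and 192 CPM in the 24 h libraries, against 112, 118 and 122 CPM in the 5 h libraries and a log2FC of 0.76 ± 0.09 (edgeR adjusted p = 0.000367). Without 5 h replicate 3 only 1 gene of the list was higher, and the single lower call was lost without each of 5 libraries. Of 5 genes annotated to electron transport in photosystem I, 2 were higher and 1 lower. Solyc05g026570, of the NAD(P)H dehydrogenase complex that cycles electrons around photosystem I, had 109.9, 82.5 and 95.4 CPM in the 24 h libraries, against 25.6, 25.1 and 24.2 CPM in the 5 h libraries (log2FC 1.94 ± 0.13, edgeR adjusted p = 1.86e-05).

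Genes of sucrose synthesis and sugar phosphate metabolism moved in both directions, and 1 of them, a sucrose-phosphate synthase gene, was among the 15 largest rises. The list was put together by keyword with the values known, from the study's annotation, which is given mainly for genes that differed between infested and control plants, so its counts describe these genes only. Beside 15.3% of all genes called higher and 14.6% lower, 8 of the 16 tested were higher, 5 were lower and 3 did not pass. The list has 17 genes, and the median log2FC of those tested was 0.41. As sums they came to 4608 ± 108 CPM in the 24 h controls and 1934 ± 95.7 CPM in the 5 h controls (SD, n = 3 each).

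Sucrose-phosphate synthase, which commits carbon to sucrose, was annotated on 2 genes. Solyc09g092130 had 312, 262 and 336 CPM in the 24 h libraries, against 11.9, 13.1 and 10.2 CPM in the 5 h libraries. It was 25.9-fold higher at 24 h (log2FC 4.69 ± 0.15), with the smallest adjusted p of the genes described here (edgeR, 1.36e-06). The other gene, Solyc07g007790, had 127, 122 and 99.8 CPM in the 24 h libraries, against 112, 144 and 138 CPM in the 5 h libraries, and its groups overlapped (log2FC -0.17 ± 0.13, edgeR adjusted p = 0.37). Of the 2 genes, 1 thus passed the test, and whether their changes differ was not tested.

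Whether the sugar phosphate enzymes that follow act in sucrose synthesis or elsewhere in the cell was not determined here. Solyc07g065900, annotated as a fructose-bisphosphate aldolase, had 1006, 988 and 955 CPM in the 24 h libraries, against 223, 244 and 306 CPM in the 5 h libraries. Its log2FC was 1.93 ± 0.13 (edgeR adjusted p = 2.11e-05). Fructose 1,6-bisphosphatase, the next step toward hexose phosphates, was higher for both genes annotated to it. Solyc04g071340 had 652, 538 and 810.4 CPM in the 24 h libraries, against 212, 186 and 245 CPM in the 5 h libraries (log2FC 1.64 ± 0.17), and Solyc10g086720, with a mean of 8.57 CPM at 24 h and 2.23 CPM at 5 h, had a log2FC of 1.94 ± 0.24. The 6-phosphofructo-2-kinase gene Solyc06g082150, whose product makes the regulator fructose 2,6-bisphosphate, was higher too. It had 221, 190.3 and 219 CPM in the 24 h libraries, against 80.2, 80.4 and 83.4 CPM in the 5 h libraries (log2FC 1.37 ± 0.10). GDP-mannose 3,5-epimerase, an enzyme of ascorbate and cell wall sugar synthesis, was also higher, with 1421, 1421 and 1342 CPM in the 24 h libraries, against 351, 377 and 346 CPM in the 5 h libraries for Solyc09g082990 (log2FC 1.96 ± 0.09, edgeR adjusted p = 4.54e-06). Groups did not overlap for any of these genes.

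Genes of the oxidative pentose phosphate pathway, which makes NADPH from glucose 6-phosphate, were divided. One glucose-6-phosphate dehydrogenase gene, Solyc05g015950, had 108, 125 and 90.2 CPM in the 24 h libraries, against 28.4, 30.6 and 36.0 CPM in the 5 h libraries (log2FC 1.76 ± 0.15). Another, Solyc07g045540, had 73.2, 78.0 and 56.8 CPM in the 24 h libraries, against 102, 109.8 and 113 CPM in the 5 h libraries (log2FC -0.64 ± 0.13). Both passed the test (edgeR adjusted p = 6.31e-05 and 0.00644), in opposite directions. The 6-phosphogluconolactonase gene Solyc05g012110, whose product acts next, was lower (log2FC -0.87 ± 0.18, edgeR adjusted p = 0.00644).

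The few starch and trehalose genes described here had small differences. They cannot stand for starch metabolism, since the annotation used here covers only 939 of the 17165 genes tested. The only gene annotated to starch breakdown, Solyc12g062250, had 67.5, 67.0 and 70.1 CPM in the 24 h libraries, against 55.0, 55.4 and 46.0 CPM in the 5 h libraries. Its log2FC of 0.39 ± 0.11 passed the test (edgeR adjusted p = 0.0255) but not without 24 h replicate 1 (0.0709), 5 h replicate 2 (0.0564) or 5 h replicate 3 (0.0936). Trehalose 6-phosphate is a sugar signal in plants, and the 2 genes annotated to its synthesis were lower, Solyc03g083960 with a log2FC of -0.60 ± 0.12 and Solyc07g062140 with -0.51 ± 0.12 (edgeR adjusted p = 0.00576 and 0.0125). The call of Solyc07g062140 was lost without 5 h replicate 2 (0.0549).

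**Figure D3:**
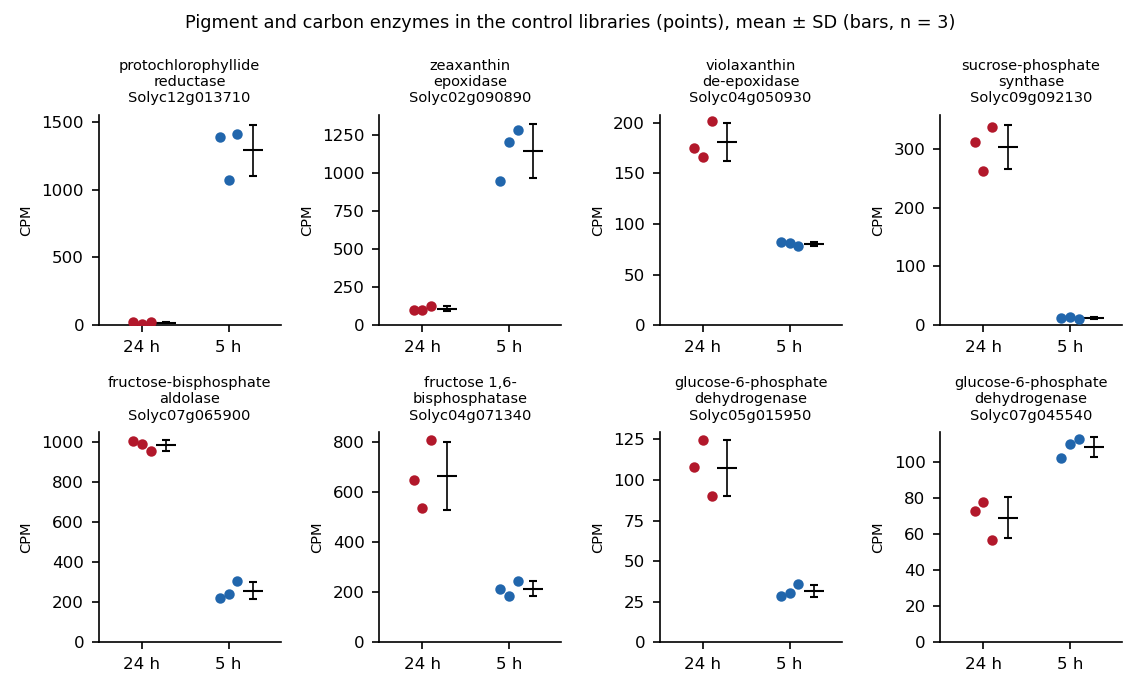
The CPM of 8 enzyme genes is shown for each control library (24 h in red, 5 h in blue), with a black bar for the mean and whiskers for the SD of 3 libraries. Each axis starts at 0, and in no panel do the 24 h and 5 h points overlap.

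Genes annotated to light perception moved in both directions. Of 9, 3 were higher, 4 were lower and 2 did not pass, with a median log2FC of -0.31. The shares over all genes were 15.3% higher and 14.6% lower. This list too was put together by keyword with values known. Solyc10g006330, annotated to chloroplast relocation, by which chloroplasts move with light, had 213, 193 and 196 CPM in the 24 h libraries, against 101, 101 and 105 CPM in the 5 h libraries (log2FC 0.97 ± 0.09, edgeR adjusted p = 9.75e-05). The DNA photolyase gene Solyc08g074270, whose product repairs DNA with the energy of light, had 41.5, 40.5 and 53.9 CPM in the 24 h libraries, against 19.6, 15.4 and 18.0 CPM in the 5 h libraries (log2FC 1.36 ± 0.15). The gene of a blue light photoreceptor, Solyc12g057040, was also higher, with a smaller log2FC of 0.66 ± 0.13 (edgeR adjusted p = 0.00518).

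Among the lower genes, Solyc12g095900 is annotated to the regulation of photoperiodism in flowering and had 9.08, 8.99 and 8.83 CPM in the 24 h libraries, against 17.1, 20.4 and 21.1 CPM in the 5 h libraries. The 24 h libraries differed from each other by very little, and the log2FC was -1.12 ± 0.14 (edgeR adjusted p = 0.000484). Solyc02g087400, annotated to the chloroplast signal recognition particle, which brings light harvesting proteins to the thylakoid membrane, had 91.9, 74.9 and 109 CPM in the 24 h libraries, against 204, 183 and 211 CPM in the 5 h libraries. It was lower at 24 h, as were most light harvesting genes, by a log2FC of -1.12 ± 0.14 (edgeR adjusted p = 0.000579). Solyc09g009420, of a blue light signalling pathway, was lower with a log2FC of -0.87 ± 0.13.

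PAL transcripts were higher at 24 h for every PAL gene tested. The phenylpropanoid list of the study names 12 PAL identifiers. Of these, 6 passed the filter, 4 were under it and 2 were not analysed here. All 6 tested were higher, with a median log2FC of 1.56, and no group overlapped. Of all genes tested, 15.3% were called higher and 22.5% had no overlap in this direction (45.6% in both). As the PAL genes were followed by the study in the same libraries, their direction is not independent evidence. Their sum was 1300.3, 1265 and 1475 CPM in the 24 h libraries, against 510.0, 443 and 447 CPM in the 5 h libraries, 2.89-fold higher.

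The rises of the 6 PAL genes were not of equal size. SlPAL3 (Solyc09g007920) had 445, 458 and 438 CPM in the 24 h libraries, against 209, 199 and 208 CPM in the 5 h libraries. Its log2FC of 1.12 ± 0.08 (edgeR adjusted p = 3.61e-05) was near that of Solyc09g007900 (1.18) and Solyc09g007890 (0.98). SlPAL5 (Solyc09g007910) had 216, 194 and 286 CPM in the 24 h libraries, against 53.5, 37.6 and 37.6 CPM in the 5 h libraries. Its rise was larger (log2FC 2.43 ± 0.19, edgeR adjusted p = 4.82e-05), as were those of PAL2 (Solyc05g056170, 1.99) and Solyc10g086180 (1.95). These last 3 genes were each highest in replicate 3 among the 24 h libraries and in replicate 1 among the 5 h libraries. The 4 genes from Solyc09g007890 to Solyc09g007920 carry neighbouring identifiers and may share reads, and their sum was 2.58-fold higher.

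The steps before and after PAL also held genes that rose. Prephenate dehydratase acts on the way to phenylalanine, the substrate of PAL, and its gene Solyc11g066890 had 37.6, 37.4 and 65.2 CPM in the 24 h libraries, against 14.3, 13.3 and 12.8 CPM in the 5 h libraries. The log2FC was 1.79 ± 0.22 (edgeR adjusted p = 0.000502). Of the 4 genes the study names for aromatic amino acids, 2 were higher and 0 lower, and without 5 h replicate 3 only this one was. After PAL, 4-coumarate:CoA ligase (4CL) activates hydroxycinnamic acids, and Solyc03g117870 had 148, 146 and 170.0 CPM in the 24 h libraries, against 59.1, 54.9 and 63.1 CPM in the 5 h libraries. Its log2FC was 1.39 ± 0.11 (edgeR adjusted p = 4.06e-05). In all, 6 of the 10 hydroxycinnamoyl-CoA genes were tested, with a median of 0.43. Of the 6, 3 were higher and 0 lower, beside 15.3% and 14.6% of all genes. Only 1 of them was higher without 24 h replicate 1, 5 h replicate 1 or 5 h replicate 2.

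Among genes of lignin precursors, 9 of 10 were tested, 3 were higher, 2 were lower and 4 did not pass. The shares called over all genes were 15.3% higher and 14.6% lower. Ferulate 5-hydroxylase, which leads toward syringyl lignin, was lower, with 9.08, 6.60 and 5.71 CPM in the 24 h libraries, against 19.8, 24.2 and 29.2 CPM in the 5 h libraries for Solyc02g084570 (log2FC -1.77 ± 0.21, edgeR adjusted p = 0.00046). The O-methyltransferase gene CCOAOMT1 (Solyc02g093270) was higher, with 77.2, 100.2 and 36.6 CPM in the 24 h libraries, against 18.1, 27.1 and 17.2 CPM in the 5 h libraries (log2FC 1.78 ± 0.34, edgeR adjusted p = 0.00503). Its lowest 24 h library, replicate 3, stood only a little above the highest 5 h library. A glucosidase gene of this list, Solyc01g074030, was higher by a log2FC of 0.60 ± 0.09.

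Flavonoid genes were called in both directions. Of 20 identifiers, 10 were tested, 8 were under the filter and 2 were not analysed here. Of the 10, 2 were higher, 2 were lower and 6 did not pass, with a median log2FC of -0.26. Over all genes 15.3% were called higher and 14.6% lower, so counts this near those shares are not read as a result about the list. SlMYB12 (Solyc01g079620), a transcription factor that activates flavonol genes in tomato, had 7.36, 5.88 and 9.48 CPM in the 24 h libraries, against 1.31, 1.49 and 1.41 CPM in the 5 h libraries. It was 5.38-fold higher at 24 h (log2FC 2.43 ± 0.25, edgeR adjusted p = 0.000213). Chalcone synthase makes the first flavonoid of the pathway, and its gene Solyc05g053500 was lower, with 2.06, 1.29 and 1.69 CPM in the 24 h libraries, against 6.50, 5.83 and 7.66 CPM in the 5 h libraries (log2FC -1.98 ± 0.26, edgeR adjusted p = 0.000647). Chalcone isomerase CHI2 (Solyc05g052240, listed as putative) was higher, with 58.8, 63.0 and 90.0 CPM in the 24 h libraries, against 43.0, 28.5 and 27.8 CPM in the 5 h libraries (log2FC 1.09 ± 0.22). The regulator, the synthase and the isomerase called thus had no common direction.

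Another 3 flavonoid genes did not pass with all 6 libraries and were called lower without 24 h replicate 3. Chalcone isomerase CHI (Solyc05g010320) had 11.5, 21.4 and 53.1 CPM in the 24 h libraries, against 92.6, 64.9 and 58.7 CPM in the 5 h libraries. The 24 h replicates were spread more than 4-fold, with replicate 3 close to the 5 h libraries, and the log2FC of -1.33 ± 0.47 did not pass (edgeR adjusted p = 0.0626). With all 6 libraries CHI was called lower with no filter (0.0444), the likelihood ratio test (0.0194), limma voom (0.0221) and the replicate block (0.0430). CHS2 (Solyc05g053550) had 22.4, 36.3 and 67.7 CPM in the 24 h libraries, against 90.2, 69.6 and 61.1 CPM in the 5 h libraries, and the groups overlapped through replicate 3 (log2FC -0.81 ± 0.35, edgeR adjusted p = 0.116). CHS1 (Solyc09g091510) showed the same order of the 24 h libraries (log2FC -0.58 ± 0.39, edgeR adjusted p = 0.307). Without 24 h replicate 3 all 3 were called lower, with log2FC of -2.15, -1.35 and -1.13 (adjusted p = 0.000179, 0.000965 and 0.0127), and 5 in place of 2 flavonoid genes were lower. Only 1 was lower without 24 h replicate 1 or any one of the 5 h libraries. Across the 10 genes, replicate 3 was the highest 24 h library for 8 and replicate 1 the lowest for 8, while at 5 h replicate 1 was the highest for 8.

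Tyramine hydroxycinnamoyl transferase (THT) joins hydroxycinnamic acids to tyramine, which gives phenolamides. Of 6 THT identifiers 5 were tested. Solyc08g068700 had 34.9, 24.9 and 22.5 CPM in the 24 h libraries, against 67.9, 68.7 and 96.5 CPM in the 5 h libraries and was lower (log2FC -1.50 ± 0.20, edgeR adjusted p = 0.000776). Solyc08g068690 had 10.6, 13.1 and 3.81 CPM in the 24 h libraries, against 2.58, 3.25 and 4.08 CPM in the 5 h libraries, and its rise of 1.47 ± 0.42 (edgeR adjusted p = 0.0277) was lost without any library other than 24 h replicate 3 (adjusted p 0.0623 to 0.0954). These identifiers are neighbours and may share reads. Their sum over the 5 genes was 51.0 ± 10.7 CPM in the 24 h controls and 91.1 ± 21.0 CPM in the 5 h controls (SD, n = 3 each).

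Over the whole phenylpropanoid list, 36 of 58 identifiers were tested, 15 were higher, 5 were lower and 16 did not pass, with a median log2FC of 0.52. Over all genes 15.3% were called higher and 14.6% lower. The higher calls include the 6 PAL genes. The lower calls are near the share over all genes and are not read as a result about the list. The lower calls were 8 without 24 h replicate 3.

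**Figure D4:**
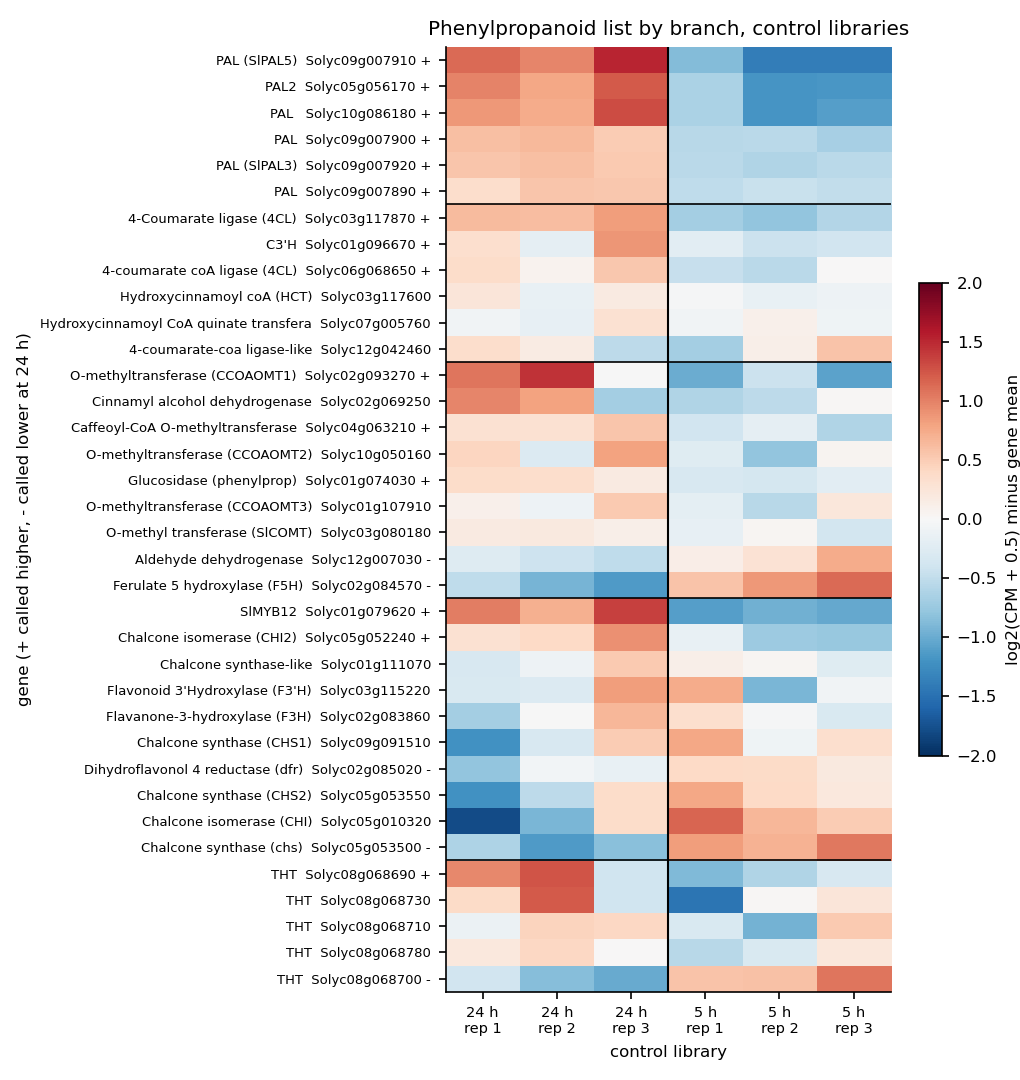
Each row is a phenylpropanoid gene and each column a control library, with 24 h on the left and 5 h on the right, and the colour is log2(CPM + 0.5) minus the mean of the gene. Blocks from the top are PAL, hydroxycinnamoyl-CoA, lignin precursor, flavonoid and THT genes, and + or - after an identifier marks a gene called higher or lower. The PAL block is red at 24 h and blue at 5 h throughout, while CHS1, CHS2 and CHI are blue in 24 h replicates 1 and 2 and paler or red in replicate 3.

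Polyamines are the amines of many other phenolamides. Of 17 polyamine identifiers 11 were tested, 3 were higher, 2 were lower and 6 did not pass, with a median log2FC of 0.16. Over all genes 15.3% were called higher and 14.6% lower. Spermidine synthase Solyc04g026030 was lower, with 103, 103 and 74.0 CPM in the 24 h libraries, against 169, 197 and 184 CPM in the 5 h libraries (log2FC -0.98 ± 0.14, edgeR adjusted p = 0.00113). Spermine synthase spm1 (Solyc03g007240), which uses the product spermidine, was higher, with 58.0, 71.6 and 67.1 CPM in the 24 h libraries, against 42.1, 34.6 and 36.4 CPM in the 5 h libraries (log2FC 0.80 ± 0.12, edgeR adjusted p = 0.00168). The gene of aromatic amino acid decarboxylase 1A (Solyc08g068680), an enzyme type that makes amines such as tyramine, was below 1 CPM in each 5 h library. It thus passed the filter only through the 24 h libraries, where it was higher, so its p-value is not independent of the filter. It had 6.53, 4.21 and 1.91 CPM in the 24 h libraries, against 0.807, 0.743 and 0.864 CPM in the 5 h libraries (log2FC 2.39 ± 0.46, edgeR adjusted p = 0.00503). The list had 1 lower call without 24 h replicate 1, 5 h replicate 2 or 5 h replicate 3.

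Genes of the cell wall included a polygalacturonase gene with one of the largest rises of any annotated gene. In a list put together by keyword with values known, 7 of 13 genes were higher, 5 were lower and 1 did not pass, with a median log2FC of 1.09. Over all genes 15.3% were called higher and 14.6% lower. The annotation behind the list is given mainly for genes that differed between infested and control plants, so its counts describe these genes only. The polygalacturonase gene Solyc05g005170, whose product cuts pectin, had 119, 73.7 and 159.5 CPM in the 24 h libraries, against 7.38, 1.99 and 2.98 CPM in the 5 h libraries. It was 28.4-fold higher at 24 h (log2FC 4.83 ± 0.49, edgeR adjusted p = 0.000174), with libraries that varied 2-fold or more within each group. Another polygalacturonase gene, Solyc09g075460, had 53.1, 41.3 and 64.3 CPM in the 24 h libraries, against 104, 94.8 and 112 CPM in the 5 h libraries and was lower (log2FC -0.97 ± 0.16). The pectinesterase gene Solyc12g008530, whose product removes methyl groups from pectin, was higher (log2FC 2.09 ± 0.25), as were 2 genes of cell wall organization, Solyc05g007830 (2.58) and Solyc06g049050 (1.81). The lower calls were 3 without 24 h replicate 1, 5 h replicate 2 or 5 h replicate 3.

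Wounding genes were followed across the libraries. All 6 libraries came from plants with the mock deposition, so the effect of the mock itself cannot be read from them. Markers of trichomes and vascular cells were not analysed here, for want of annotated identifiers. The list was chosen by the study on infested plants, and 9 of its 12 genes passed the filter in controls. Their sum was 29.0, 88.2 and 30.9 CPM in the 24 h libraries, against 30.8, 29.9 and 32.8 CPM in the 5 h libraries. In this sum, replicate 2 of the 24 h controls stood above the other 5 libraries, whose sums were alike. It was the highest 24 h library for 8 of the 9 genes. Within the 5 h libraries single genes varied more than their sum, with a median coefficient of variation (SD over mean) of 45.8%. The log2FC of the 9 genes ran from -1.34 to 2.18, with a median of 1.18. The only call was Solyc09g084480, with 2.96, 11.8 and 4.55 CPM in the 24 h libraries, against 1.69, 2.23 and 0.314 CPM in the 5 h libraries (log2FC 2.18 ± 0.68, edgeR adjusted p = 0.0413). This call was lost without 24 h replicate 2, without any one of the 5 h libraries (adjusted p 0.0601 to 0.135 over these 4) and with limma voom (0.0683). Without 24 h replicate 2, 5 h replicate 2 or 5 h replicate 3 the list had 0 calls in the higher direction, and without 24 h replicate 3 it had 4. The part of this library in the other results was not tested beyond leaving it out.

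The study's tables as used here annotate 939 of the 17165 genes tested, so most genes can be given by identifier only. Among genes called, without overlap and with at least 5 CPM in the higher group, the 15 largest rises had log2FC of 4.69 to 6.01 and the 15 largest falls -7.77 to -4.67, and 3 of each 15 were annotated. Among the rises these were a phosphatase gene, Solyc06g062560 (6.60 ± 1.94 CPM in the 24 h controls and 0.103 ± 0.0585 CPM in the 5 h controls (SD, n = 3 each)), and the polygalacturonase and sucrose-phosphate synthase genes above. Among the falls they were the protochlorophyllide reductase gene Solyc12g013710 and 2 others. Solyc04g071800, annotated as a heme and iron binding oxidoreductase, had 19, 22 and 0 counts in the 24 h libraries, against 2273, 3530 and 2959 counts in the 5 h libraries (log2FC -7.77 ± 0.52, edgeR adjusted p = 2.14e-05). Solyc05g052030, annotated as a DNA-binding transcription factor, had 4, 6 and 12 counts in the 24 h libraries, against 579, 817 and 984 counts in the 5 h libraries (log2FC -6.75 ± 0.39, edgeR adjusted p = 1.17e-05). Of genes without annotation, Solyc04g007470 (37.1 against 0.57 CPM) and Solyc06g062540 (11.9 against 0.183 CPM) rose most and Solyc04g049680 (0.211 against 23.4 CPM) and Solyc08g065940 (0.158 against 13.3 CPM) fell most, each as the 24 h mean against the 5 h mean. Apart from the polygalacturonase, sucrose-phosphate synthase and protochlorophyllide reductase genes, each gene named here was below 1 CPM in every library of its lower group. Each of these passed the filter only through the group where it was high, so its call is not independent of the filter.

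**Figure D5:**
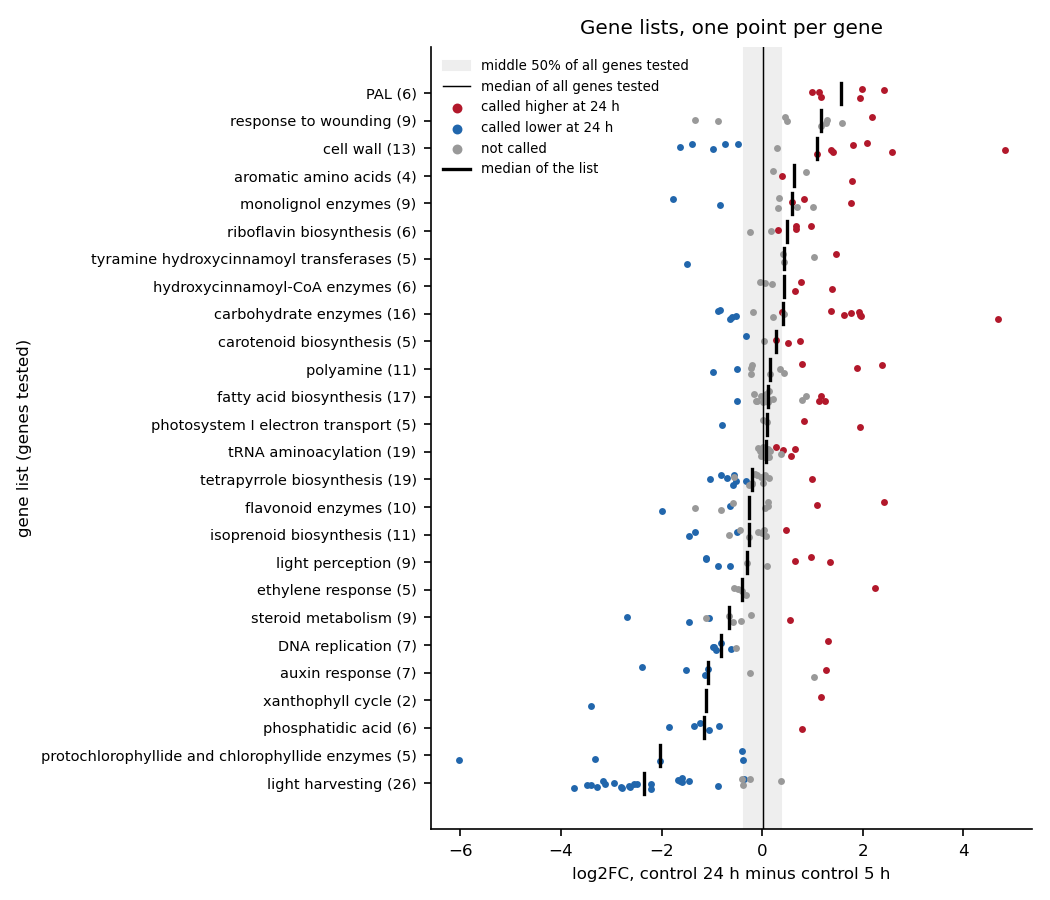
Each point is a gene of the named list (rows, with the number tested), placed by its log2FC, 24 h minus 5 h controls, with red for genes called higher, blue for genes called lower and grey for the rest. Black bars are list medians, and the grey band is the middle 50% of all genes tested, -0.36 to 0.37. Light harvesting lies farthest to the left with a median of -2.35, and PAL farthest to the right with 1.56.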

How the data were processed

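RNA was measured in the 6 control libraries by RNA-seq. Per the submitters' processing notes and the file headers, Trimmomatic, BWA and featureCounts made the files, and what the authors deposited are whole-number gene counts, not normalized. The methods text speaks of FPKM and of the ITAG2.4 annotation. Whether counting used strand, and how it treated reads with several matches, is not stated in the sources used here.

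Libraries were scaled by TMM and fitted with edgeR 4.0.16 in R 4.3.3 (quasi-likelihood F test, 1 mean per group, prior count 0.125), and p-values were adjusted by Benjamini-Hochberg over the 17165 genes tested. CPM are scaled by TMM. The standard error is the log2FC divided by the square root of F. DESeq2 1.42.0 and limma 3.58.1 served the alternatives: other size factors, library totals, no filter or filterByExpr, other tests, stricter calls, the replicate number as a block and each library left out. Figures used Python 3.11.15, pandas 2.3.3 and matplotlib 3.10.9.

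Gene lists came from the study's tables of followed genes and annotations, and members and lists were chosen with earlier results of these data known. The light harvesting, tetrapyrrole, chlorophyll, carotenoid, photosystem I, riboflavin, tRNA, fatty acid, isoprenoid, steroid, phosphatidic acid, ethylene and wounding lists are groups the study chose on infested against control plants, and the annotation behind the keyword lists covers mainly genes from the same comparisons. Named genes were to be list members with the smallest adjusted p, up to 10 a list, and the 15 largest rises and falls without overlap. Genes named outside this rule were chosen after their values were seen, such as members that did not pass. Metabolite and enzyme measurements were not analysed here.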

Additional observations from a re-analysis of the deposited data

How the results depend on the processing

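All 82 of the named genes that passed the main test kept their direction under every alternative that tested them. Of the 82, 75 kept their call under all of these but the limit of 1.5 on absolute log2FC, under which 39 lost it. Solyc04g007470, Solyc04g049680, Solyc04g071800, Solyc05g052030, Solyc06g062540, Solyc06g062560, Solyc08g065940 and Solyc08g068680 were tested under only 14 of 17 alternatives. They passed the filter through 1 group only, and fell below it whenever a library of that group was left out. The counts over all genes moved by more than 1.5 times under that limit (609 higher, 583 lower) and at an adjusted p below 0.01 (1476 and 1402). Over DESeq2's size factors, library totals, no filter, filterByExpr, limma voom, the likelihood ratio and Wald tests and the replicate block they were 2412 to 3330 higher and 1945 to 2705 lower.

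With library totals, the light harvesting list had 1 gene called higher, the reductase and oxygenase genes 3 called lower, the carotenoid list 0 lower, the flavonoid list 1 lower, the polyamine list 1 lower and the wounding list 2 higher. With no filter the carotenoid list had 0 lower and the wounding list 2 higher. With DESeq2's Wald test the light harvesting list had 1 higher, the steroid list 5 lower and the wounding list 5 higher and 1 lower. DESeq2's size factors in edgeR, added after seeing the data for the lists, gave the wounding list 2 higher. The replicate block gave 2412 genes higher and 2361 lower. In the lists it gave 1 higher for light harvesting, 0 lower for carotenoid, 0 higher for THT, 0 higher for isoprenoid, 2 higher for tRNA charging, and 2 higher and 1 lower for wounding. The deviations of same-numbered libraries correlated at -0.19, 0.36 and 0.0076, and those of libraries with other numbers at -0.38 to 0.37. No pairing by number was seen, but 3 libraries a group cannot settle whether one exists.

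Leaving out 1 library at a time gave 1772 to 2732 genes higher and 1626 to 2867 lower, the largest with 24 h replicate 3 left out. In the lists the ranges were 0 to 1 higher for light harvesting, 3 to 4 lower for reductase and oxygenase genes, 1 to 2 higher and 0 to 1 lower for carotenoid, 2 to 3 higher for riboflavin, 1 to 3 higher for hydroxycinnamoyl-CoA, 1 to 5 lower for flavonoid, 0 to 1 higher for THT, 4 to 8 lower for the whole phenylpropanoid list, 1 to 2 lower for polyamine, 1 to 3 higher for aromatic amino acids, 0 to 1 higher and 3 to 6 lower for isoprenoid, 0 to 1 higher and 1 to 5 lower for steroid, 0 to 2 lower for fatty acid, 2 to 4 higher for tRNA charging, 3 to 5 lower for cell wall, 1 to 3 lower for auxin, 3 to 6 lower for DNA replication, 0 to 1 lower for ethylene, and 0 to 4 higher and 0 to 1 lower for wounding. The cause of these shifts was not tested beyond the smaller number of libraries. A floor of 3 counts lay at 0.103 to 0.130 CPM and covers counting error only.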

Other observations

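Lipid and growth genes showed a mixed picture in these leaflets. Of the 6 genes the study names for phosphatidic acid signalling, 5 were lower at 24 h and 1 was higher, with a median log2FC of -1.15, beside 14.6% of all genes called lower and 15.3% higher. The study picked these genes for a difference between infested leaflets and control libraries used here, so their direction is not independent evidence. Phosphatidylinositol-specific phospholipase C cuts a membrane lipid into a pair of signals, and its genes Solyc10g055240 and Solyc01g111260 had log2FC of -1.85 ± 0.28 and -1.24 ± 0.20 (SE; edgeR adjusted p = 0.00139 and 0.00202). Of 3 phosphatidylinositol-4-phosphate 5-kinase genes, which make the substrate of that enzyme, Solyc06g065540 and Solyc11g013830 were lower (log2FC -1.36 and -1.06) and Solyc11g013180 was higher (0.79). In the isoprenoid list 3 of 11 genes were lower and 1 was higher. Hydroxymethylglutaryl-CoA synthase, which opens the mevalonate route, was lower, with 23.1, 18.8 and 21.2 CPM in the 24 h libraries, against 51.6, 53.4 and 54.0 CPM in the 5 h libraries for Solyc08g080170 (log2FC -1.33 ± 0.11, edgeR adjusted p = 6.85e-05). Farnesyl pyrophosphate synthase, further down the route, was lower by less (Solyc12g015860, log2FC -0.51 ± 0.11). In the steroid list 3 of 9 genes were lower and 1 was higher, and a sterol reductase gene, Solyc09g009040, was lower with a log2FC of -1.45 ± 0.20. Without 24 h replicate 3 the isoprenoid list had 6 lower calls and the steroid list 5.

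DNA replication genes were lower in 5 of 7 cases and higher in 1, with a median log2FC of -0.82. This count and those of the lists that follow stand beside 14.6% of all genes called lower and 15.3% higher. The DNA primase gene Solyc08g082200, whose product starts new strands, had 7.39, 5.73 and 6.10 CPM in the 24 h libraries, against 14.1, 9.97 and 12.4 CPM in the 5 h libraries (log2FC -0.93 ± 0.19, edgeR adjusted p = 0.00686). Genes of the auxin response, auxin being the main growth hormone, were lower in 4 of 7 cases and higher in 1. Solyc01g110570 had the largest fall, with 3.03, 2.20 and 4.07 CPM in the 24 h libraries, against 18.5, 14.8 and 15.6 CPM in the 5 h libraries (log2FC -2.40 ± 0.24, edgeR adjusted p = 0.00015). Both lists were put together by keyword with values known, from the same annotation of genes chosen mainly on infested against control plants. Without 24 h replicate 1, 5 h replicate 2 or 5 h replicate 3 the replication list had 3 lower calls, and without any one of these or 24 h replicate 2 the auxin list had 1 or 2. Genes that charge transfer RNA with amino acids lay near the middle of all genes, with 4 of 19 higher, 0 lower and a median of 0.08, and without 24 h replicate 1, 24 h replicate 3, 5 h replicate 2 or 5 h replicate 3 only 2 were higher. Of 17 fatty acid genes 3 were higher and 1 was lower. Acetyl-CoA carboxylase makes the first precursor of fatty acids, and its gene Solyc01g094340 was among the higher (log2FC 1.18 ± 0.13, edgeR adjusted p = 0.000287). The lower call was lost without 24 h replicate 1 or 5 h replicate 1, and without 24 h replicate 3 there were 2. Riboflavin genes were higher in 4 of 6 cases and lower in 0, with log2FC of 0.32 to 0.98 among those called, and without 5 h replicate 3 only 2 were higher. Of 5 genes of the ethylene response 1 was higher, Solyc06g053710, with 5.30, 5.01 and 4.81 CPM in the 24 h libraries, against 1.31, 0.704 and 1.18 CPM in the 5 h libraries (log2FC 2.24 ± 0.30, edgeR adjusted p = 0.000752), and 0 were lower. Without 24 h replicate 2, 24 h replicate 3 or 5 h replicate 1, 1 was lower.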
